A study of Arabidopsis thaliana with 18 samples.

Results

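The 10 core clock genes of Arabidopsis thaliana were followed, library by library, in root apices of 2 natural accessions, Landsberg erecta (Ler) and Columbia (Col). They were taken by locus identifier from the deposited count tables and comprise CCA1 (AT2G46830), LHY (AT1G01060), PRR9 (AT2G46790), PRR7 (AT5G02810), PRR5 (AT5G24470), TOC1 (AT5G61380), ELF3 (AT2G25930), ELF4 (AT2G40080), LUX (AT3G46640) and GI (AT1G22770). All 10 of 10 were present among the 32852 features listed for every library, and all 10 were among the 20599 features that passed the filter on low counts, with at least 72 reads in each library. The groups were wild-type Ler at 0, 1 and 2 h and wild-type Col at 0, 1 and 2 h, with 3 libraries in each of the 6 groups, numbered 1 to 3 and described by the submitters as biological replicates. Seedlings had stood for 7 days on medium containing 500 µM phosphate under 16 h of light and 8 h of dark. The 1 h and 2 h seedlings were then put on the same medium lacking phosphate, and tips of about 0.5 cm were frozen. The protocols describe a move to fresh phosphate medium for the 0 h seedlings, although the treatment entry of those libraries records none. No group kept on phosphate for 1 or 2 h was analysed here, and the clock times of transfer and harvest are not given in the sources used here. Phosphate withdrawal, the move itself and the passing of the day therefore cannot be told apart in any change over time.

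The plant clock is a loop of transcription factors that repress one another in turn over the day. CCA1 and LHY, a pair of related MYB factors, peak around dawn and repress the evening genes. The pseudo-response regulators PRR9, PRR7 and PRR5 follow one another through the day and, with TOC1 in the evening, repress CCA1 and LHY. ELF3, ELF4 and LUX form the evening complex, which represses PRR9 among others at night, and GI, which peaks late in the day, acts with the F-box protein ZTL in the turnover of TOC1 and PRR5. In roots the clock is known to run and to receive signals from the shoot.

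The binding sites that join these genes were read from the 500 bases upstream of the most upstream annotated start of each gene, in RefSeq's annotation of TAIR10.1, and both strands were searched. The evening element AAAATATCT, a site bound by CCA1 and LHY, was present upstream of 3 of the 10 genes, TOC1, PRR5 and LUX, against 4.44% of 27443 protein-coding promoters of the same length. These sites are shown because TOC1, PRR5 and LUX were low in most libraries in which the transcripts of CCA1 and LHY were high. PRR7, ELF4 and GI were also low in those libraries, in all 6 groups, and had no evening element in this window. The part of the element in these levels was not tested. Each line gives 5′ to 3′ on the gene's own strand, with the evening element in capitals; AGATATTTT is the element read from the other strand, and the TOC1 site lies at chr5:24674800-24674832, the PRR5 sites at chr5:8358818-8358850 and chr5:8358713-8358745 and the LUX site at chr3:17182977-17183009.
TOC1: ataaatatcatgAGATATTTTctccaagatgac
PRR5, first site: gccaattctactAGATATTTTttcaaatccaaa
PRR5, second site: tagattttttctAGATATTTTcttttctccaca
LUX: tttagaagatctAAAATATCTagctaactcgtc

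The G-box CACGTG, bound by bZIP and bHLH factors that include light-signalling proteins, was present upstream of 5 of the 10 genes, against 9.35% of the promoters. It lay once upstream of CCA1, LHY, PRR7 and LUX and in 2 copies upstream of PRR9. Of these, PRR7 was lowest in the library numbered 2 in all 6 groups and LUX in 5 of 6. The part of the G-box in these levels was not tested. The sites of the 3 genes that were high in the libraries numbered 2 follow, with the G-box in capitals, at chr2:19245386-19245415 for CCA1, chr1:37934-37963 for LHY, and chr2:19232351-19232380 and chr2:19232423-19232452 for PRR9.
CCA1: tagtgtatcagaCACGTGtcgacaaactgg
LHY: ctacaatatcacCACGTGtcgatctgcgat
PRR9, first site: acaatagaaaccCACGTGtcatccacatga
PRR9, second site: ttaggttaatgaCACGTGttaaggtggacc

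The shorter CCA1-binding site AAAAATCT was found upstream of LHY, PRR5 and PRR9 (3 of 10, against 12.5% of promoters). The LUX-binding words GATACG (ELF3 and ELF4, 2 of 10, against 8.76%) and GATTCG (TOC1, PRR9 and LUX, 3 of 10, against 15.4%) were also present. The AAAAATCT upstream of PRR5 lies beside its second evening element. These matches are letters in a window and do not show that a factor was bound in these roots.

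Libraries held 23451068 to 29277597 counts. All 9 root-apex markers examined were detected. The summed level of 5 green-tissue genes, most of it from RCA, was 14.1 to 77.2 CPM (counts scaled to library size with TMM factors) in the 6 libraries numbered 2, with a median of 31.5, against 18.1 to 128 CPM, median 54.5, in the 12 numbered 1 and 3. Of these, RCA was at 9.84 to 95.2 CPM over the 18 libraries, RBCS1A at 1.86 to 24.9, LHCB2.1 at 0.220 to 5.36, LHCB1.1 at 0.698 to 2.68 and CA1 at 0 to 1.87, with no read in 3 libraries. Libraries of equal number deviated together: over all features tested, correlations between their deviations from their group's mean averaged 0.352 over the 45 pairs of equal number and -0.174 over the 90 pairs of different number, and all 18 libraries correlated best with their own number. Before any comparison over time, the libraries numbered 2 stood apart in the clock genes, so results are given with and without them. Leaving them out was chosen from these same genes and keeps only the libraries numbered 1 and 3 in each group. The spread and p-values of the clock genes in those fits depend on that choice and are given as a description. In bulk tissue a change in RNA per cell and a change in the share of expressing cells cannot be told apart.

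The morning genes CCA1 and LHY were several times higher in the libraries numbered 2 than in the libraries numbered 1 and 3, in all 6 groups. In Ler, LHY was at 194 CPM in the library numbered 2, against 36.9 and 39.5 CPM in those numbered 1 and 3 at 0 h, at 203 against 26.0 and 31.2 CPM at 1 h, and at 135 against 25.8 and 23.9 CPM at 2 h. In Col it was at 99.1 against 13.2 and 16.9 CPM at 0 h, at 96.8 against 10.4 and 8.93 CPM at 1 h, and at 39.3 against 6.59 and 6.11 CPM at 2 h. The library numbered 2 was 5.07 to 10.0 times the mean of the other libraries of its group, whereas libraries 1 and 3 differed from each other by at most 1.28 times.

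CCA1 behaved alike at a lower level. In Ler it was at 37.3 CPM in the library numbered 2, against 14.4 and 8.20 CPM in those numbered 1 and 3 at 0 h, at 41.7 against 8.73 and 11.5 CPM at 1 h, and at 27.0 against 10.3 and 8.23 CPM at 2 h. In Col it was at 41.0 against 8.18 and 8.39 CPM at 0 h, at 42.6 against 6.54 and 4.60 CPM at 1 h, and at 22 against 2.59 and 5.11 CPM at 2 h. The ratio was 2.91 to 7.66, and no group overlapped between the library numbered 2 and the others.

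**Figure D1:**
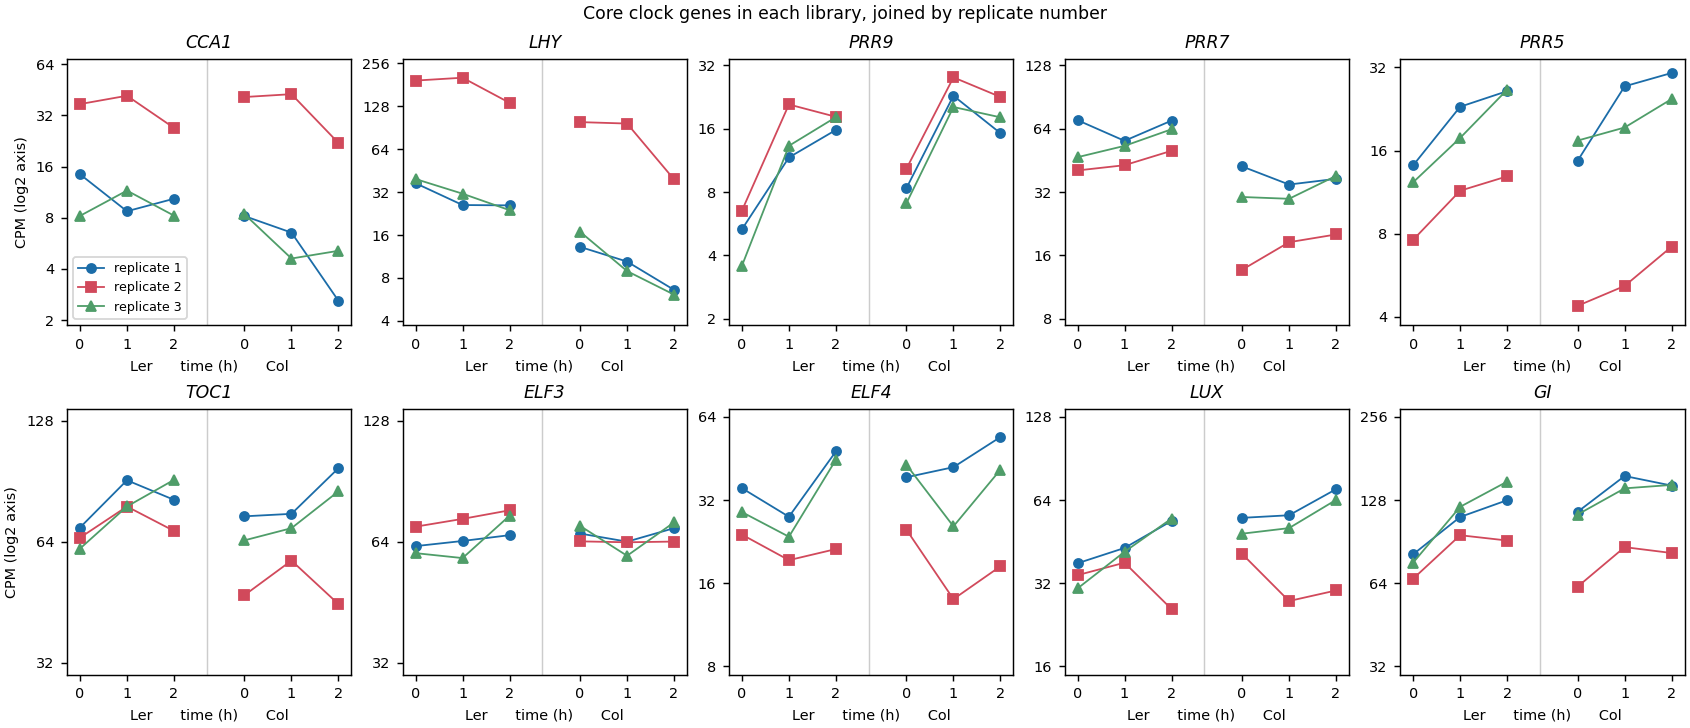
Each panel plots 1 clock gene in all 18 libraries as CPM on a log2 axis against time in hours, Ler left and Col right, with libraries of equal replicate number joined by a line. The libraries numbered 2 (squares) lie above the others for CCA1 and LHY and below them for PRR7, PRR5, ELF4 and GI in all 6 groups, while ELF3 stays between 58.3 and 76.6 CPM.

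PRR5, PRR7, ELF4 and GI lay on the other side in every group. PRR5 was at 7.60, 11.4 and 12.9 CPM in the Ler libraries numbered 2 at 0, 1 and 2 h and at 4.38, 5.17 and 7.18 CPM in the Col ones, 1.74 to 4.51 times below the mean of the libraries numbered 1 and 3. The other 3 were likewise lowest in the library numbered 2 in all 6 groups, PRR7 by 1.27 to 2.66 times, ELF4 by 1.33 to 2.59 times and GI by 1.18 to 1.85 times. TOC1 and LUX were lowest there in 5 of 6 groups, the exception being Ler at 0 h, where both lay between the libraries numbered 1 and 3. PRR9, repressor of CCA1 and LHY in the morning, was highest in the library numbered 2 in all 6 groups, by 1.07 to 1.67 times. ELF3 had no such position: the library numbered 2 was highest in the 3 Ler groups, lowest in 2 Col groups and between the others in the remaining one.

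**Figure D2:**
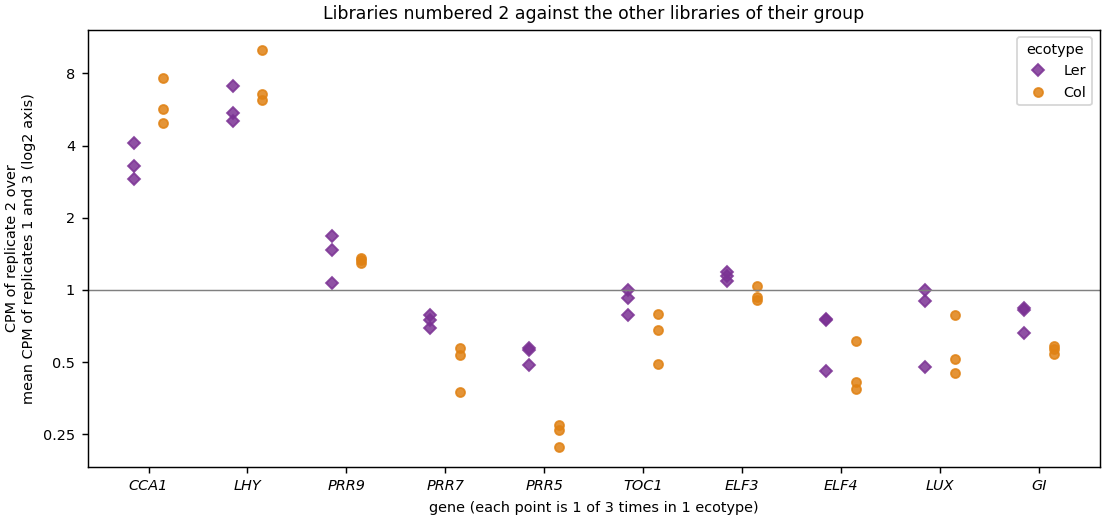
For each clock gene the CPM of the library numbered 2 is divided by the mean CPM of the libraries numbered 1 and 3 of the same group (log2 axis); diamonds are the 3 Ler groups and circles the 3 Col groups. LHY reaches 10.0 and CCA1 7.66, PRR5 goes down to 0.222, and ELF3 stays between 0.911 and 1.19.

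In a fit with the replicate number as a term, chosen after the pattern had been seen, 9 of the 10 genes differed between replicate numbers, ELF3 being the exception (edgeR's quasi-likelihood test, Benjamini-Hochberg adjusted over all features). The same term passed for 35.3% of all features tested. Its p is for any difference among the 3 replicate numbers, and no test of replicate 2 against 1 was run. LHY had the smallest adjusted p of the 10 (6.35e-09, fitted log2 difference 2.75 between replicates 2 and 1), followed by CCA1 (1.59e-05, 2.15), PRR5 (0.000353, -1.49), GI (0.000796, -0.59) and ELF4 (0.00091, -0.998). PRR7 (0.00157, -0.83), PRR9 (0.00958, 0.42), LUX (0.0118, -0.65) and TOC1 (0.0225, -0.44) followed, and ELF3 had an adjusted p of 0.586. Between replicates 1 and 3 alone, none of the 10 passed in the same test, while 29.2% of all features did; the smallest adjusted p of the 10 was 0.0573, for PRR7, whose fitted log2 difference between replicates 3 and 1 was -0.25 in the fit of all libraries. Over all features, 1.56% were above both other libraries in all 6 groups in the library numbered 2, and 3.69% were below both. For the library numbered 1 these shares were 5.16% and 3.46%, and for that numbered 3 they were 1.75% and 1.81%. Over all features the libraries numbered 2 were thus not the ones most often set apart. The labels do not say what the replicate number stands for. The green-tissue sum was below that of both other libraries in the library numbered 2 in 4 of 6 groups and between them in 2; its part in the differences between replicate numbers was not tested.

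The direction of these offsets was compared with the direction of the change over time within the libraries numbered 1 and 3. In 8 of the 10 genes the 2 h change in both ecotypes had the opposite sign to the offset of the libraries numbered 2: CCA1 and LHY were lower at 2 h in libraries 1 and 3 and high in libraries 2, and PRR5, PRR7, TOC1, ELF4, LUX and GI were higher at 2 h and low in libraries 2. Several of these changes were small, such as 0.04 on the log2 scale for PRR7 in Col, and the count is a description with no test. No share over all features is given beside it. The genes also varied together, so they are not separate cases. Pearson's r of log2 CPM was 0.967 between CCA1 and LHY and 0.931 between PRR5 and GI. The exceptions were PRR9, which was higher on both counts, and ELF3. Time of day at harvest was not given, and whether it differed between replicate numbers was not tested.

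PRR9 was the one clock gene that changed over time in the fit of all 18 libraries without the replicate number. In Ler it was at 5.32, 6.53 and 3.57 CPM in libraries 1, 2 and 3 at 0 h, at 11.7, 20.9 and 13.3 CPM at 1 h, and at 15.8, 18.2 and 18.2 CPM at 2 h. In Col it was at 8.36, 10.3 and 7.08 CPM at 0 h, at 22.96, 28.1 and 20.3 CPM at 1 h, and at 15.2, 22.7 and 18.1 CPM at 2 h. Every library at 1 h and 2 h lay above every library at 0 h of its ecotype, and the share of all features that separate in this way is not given. PRR9 rose in Ler by 1.57 at 1 h (log2 fold change, SE 0.25, adjusted p = 0.00123 by edgeR) and by 1.76 at 2 h (SE 0.25, adjusted p = 0.00152). It rose in Col by 1.47 at 1 h (SE 0.25, adjusted p = 0.00127) and by 1.12 at 2 h (SE 0.25, adjusted p = 0.0191). PRR9 was thus 1 of 10 clock genes called in each of these comparisons, all higher, against 6.82% of all features called in Ler at 1 h and 2.8% at 2 h, and 11.1% in Col at 1 h and 6.39% at 2 h. The Col 2 h call was lost in 4 of the 18 fits that left out 1 library, with an adjusted p of up to 0.084, when Col 0 h library 1 or 3 or Col 2 h library 2 or 3 was absent. PRR9 did not pass between 1 h and 2 h in either ecotype, at 0.19 in Ler (95% interval -0.32 to 0.70) and -0.35 in Col (-0.86 to 0.16).

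Tissue markers moved over the same hours. The green-tissue sum was 58.0 to 128, 39.7 to 64.1 and 31.9 to 65.0 CPM in Ler at 0, 1 and 2 h and 31.1 to 67.4, 20.0 to 45.2 and 14.1 to 27.5 CPM in Col. The root-apex sum was 405 to 459, 346 to 436 and 383 to 510 CPM in Ler and 628 to 752, 489 to 701 and 471 to 524 CPM in Col. Of the 5 green-tissue genes, 1 rose and 0 fell in each ecotype at 1 h (CA1, which stayed at or below 1.87 CPM), 0 passed in Ler at 2 h, and 1 (RCA) fell in Col at 2 h. Of the 9 root-apex markers, 1 rose in Ler at each time, and in Col 2 rose and 1 fell at 1 h and 3 rose at 2 h. WOX5, which marks the quiescent centre, rose by 3.67 in Ler and 3.63 in Col at 1 h on the log2 scale (adjusted p = 6.71e-05 and 6.63e-05 by edgeR). CASP1, an endodermal marker, averaged 203 CPM in Col at 2 h and 408 CPM at 0 h, a log2 fold change of -1.003 (adjusted p = 0.0645). In Col at 0 h it was the largest part of the root-apex sum. The 3 markers that rose in Col at 2 h were WOX5, PLT1 and PLT2, which averaged 0.725, 9.94 and 7.37 CPM in Col at 0 h. The part of these markers in the changes of the clock genes over time was not tested.

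PRR9 shares sequence with 1 other locus, AT2G46670, a partial gene that matches a 917-base stretch of PRR9 at 99.67% identity on the same chromosome. How reads that match both were counted is not stated, so the PRR9 counts are uncertain to that extent. AT2G46670 was at 0.401 to 5.76 CPM over the 18 libraries; its log2 changes were 1.40 and 1.30 in Ler and 1.28 and 1.02 in Col at 1 and 2 h, none of which passed (adjusted p 0.0639 to 0.146 by edgeR). No other clock gene had a match of 95% identity over 100 bases elsewhere.

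**Figure D3:**
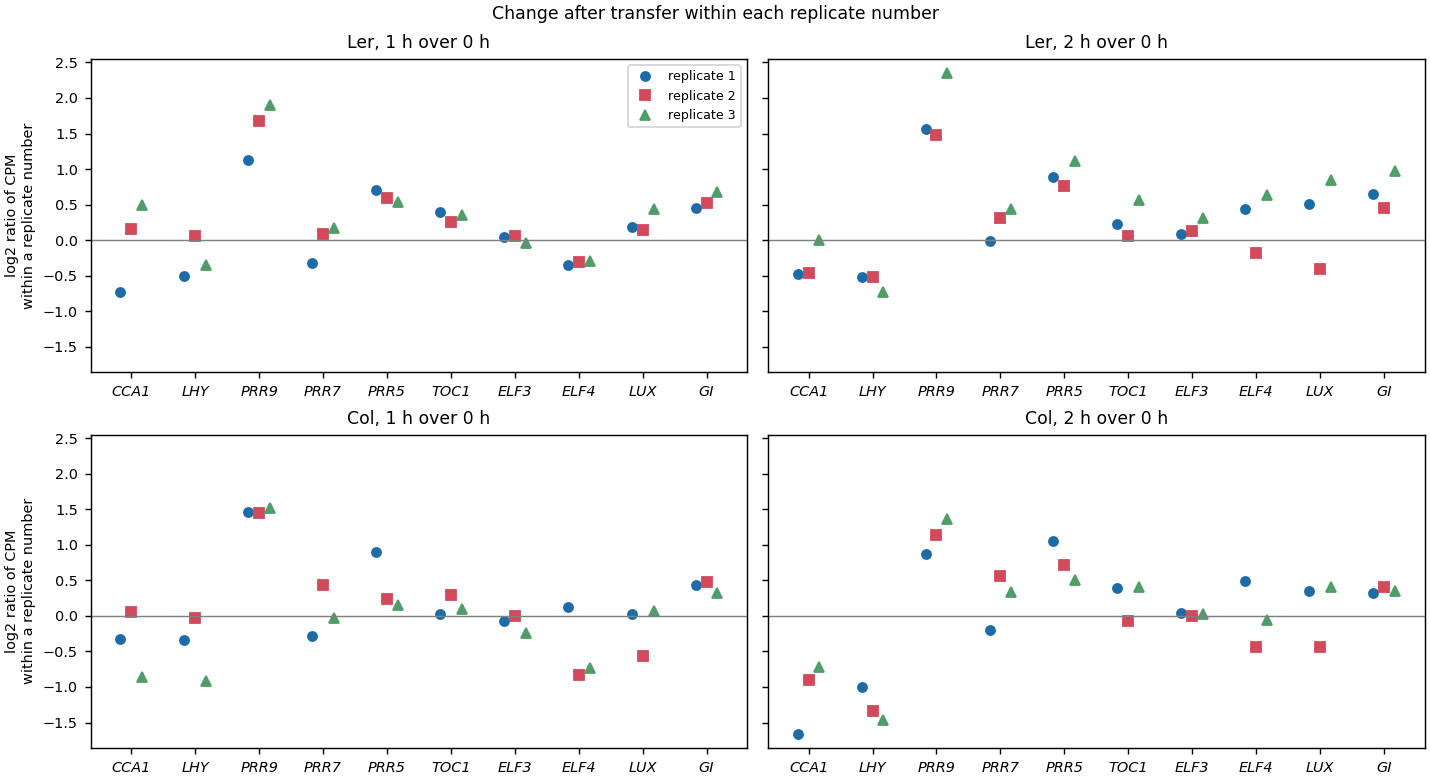
Points are the log2 ratio of CPM at 1 h or 2 h over 0 h between libraries of equal replicate number, for each clock gene, with Ler above and Col below. PRR9 is above 0 in all 12 points (0.87 to 2.35), GI is above 0 in all 12, and CCA1 and LHY lie mostly below 0 at 2 h. Equal numbers were not taken to pair the libraries in Ler at 2 h against 0 h.

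CCA1 and LHY did not pass in the fit of all libraries, in which the libraries numbered 2 widened the spread. The log2 fold change of LHY in Col at 2 h against 0 h was -1.32 with an SE of 1.20 (adjusted p = 0.515), and that of CCA1 was -0.96 with an SE of 0.99 (adjusted p = 0.571). With the replicate number as a block, whose use rests on the correlations given above, LHY at 2 h in Col fell by 1.28 against 0 h (log2, SE 0.18, adjusted p = 0.000599 by edgeR) and fell by 0.90 against 1 h (SE 0.18, adjusted p = 0.00827). CCA1 at 2 h in Col fell by 1.01 against 0 h in the same fit (SE 0.31, adjusted p = 0.0331). In the libraries of equal number LHY was lower at 2 h than at 0 h in 3 of 3 pairs in both ecotypes, at log2 ratios of -0.73 to -0.52 in Ler and -1.47 to -1.003 in Col. CCA1 was lower in 2 of 3 pairs in Ler, the other being 0.01 higher, and in 3 of 3 pairs in Col. In Ler at 2 h against 0 h the equal numbers did not pass the check for pairing (smallest r 0.032). Pair counts of that comparison are therefore only a description. With the libraries numbered 2 left out and no block, LHY in Col fell by 0.65 at 1 h (adjusted p = 0.047 by edgeR) and fell by 1.25 at 2 h (adjusted p = 0.0152), and CCA1 in Col at 2 h was at -1.11 (adjusted p = 0.0943). Those libraries were left out after these genes had been seen, which by itself narrows the spread. The same limit applies to the later results without them.

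GI, PRR5 and TOC1 were mostly higher after transfer than at 0 h. GI was at 81.5, 66.5 and 76.0 CPM in Ler libraries 1, 2 and 3 at 0 h, at 111, 95.5 and 121 CPM at 1 h and at 128, 91.4 and 149 CPM at 2 h. In Col it was at 116, 62.2 and 114 CPM at 0 h, at 156, 86.5 and 141 CPM at 1 h and at 144, 82.4 and 145 CPM at 2 h. All 3 pairs of equal number went up in both ecotypes at both times, though the numbers did not pass the check for pairing in Ler at 2 h against 0 h. In Ler no library at 1 h or 2 h overlapped with 0 h, whereas in Col the library numbered 2 at 1 h and 2 h lay below the other libraries at 0 h. How many of all features separate in this way is not given. Without the block GI did not pass: its log2 fold change was 0.55 in Ler at 1 h (SE 0.27, adjusted p = 0.31), 0.72 in Ler at 2 h (SE 0.27, adjusted p = 0.199), and in Col 0.40 at 1 h (adjusted p = 0.394) and 0.35 at 2 h (adjusted p = 0.441). With the block GI rose at 1 h by 0.55 in Ler (SE 0.13, adjusted p = 0.0122) and by 0.40 in Col (SE 0.13, adjusted p = 0.042), and in Col at 2 h its adjusted p was 0.0678. Without the libraries numbered 2 it rose in Ler by 0.53 at 1 h (adjusted p = 0.0396) and by 0.80 at 2 h (adjusted p = 0.0178), and in Col it did not pass, at 0.36 at 1 h (adjusted p = 0.0995) and 0.33 at 2 h (adjusted p = 0.118).

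PRR5 went up between 0 h and 2 h in all 3 pairs of equal number in both ecotypes, by 0.76 to 1.11 on the log2 scale in Ler and by 0.50 to 1.06 in Col. It did not pass in the fit of all libraries, at 0.95 in Ler (SE 0.60, adjusted p = 0.503) and 0.77 in Col (SE 0.60, adjusted p = 0.438). TOC1 went up in 3 of 3 pairs in Ler and in 2 of 3 in Col at 2 h, by at most 0.57, and passed in neither. For both genes the Ler pairs at 2 h are only a description, since the equal numbers did not pass the check for pairing there. PRR7 gave the smallest log2 fold changes of the PRR genes, 0.22 in Ler at 2 h (95% interval -0.51 to 0.96) and 0.14 in Col (-0.60 to 0.89).

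Of the evening complex genes, ELF3 varied least over time, and ELF4 and LUX had wider intervals. ELF3, the scaffold of the complex, was at 58.3 to 76.6 CPM in all 18 libraries, with a 2 h log2 fold change of 0.18 in Ler (95% interval -0.03 to 0.39) and 0.02 in Col (-0.18 to 0.23). ELF3 overlaps an antisense RNA and a protein-coding gene on the other strand, and LUX overlaps a protein-coding gene on the other strand. The libraries were strand-specific per the labels, but whether the counting used strand is not stated. LUX, the DNA-binding member, was at 53.8 and 54.9 CPM in the Ler libraries numbered 1 and 3 at 2 h, against 37.8 and 30.6 CPM at 0 h. In Col the same libraries were at 70.1 and 64.1 CPM at 2 h, against 55.2 and 48.4 CPM at 0 h, while both libraries numbered 2 moved the other way, to 25.8 against 34.2 CPM in Ler and 30.1 against 40.9 CPM in Col. ELF4, a small protein that ELF3 recruits, went down between 0 h and 1 h in 5 of the 6 pairs of equal number and up between 1 h and 2 h in all 6. Its log2 fold change at 2 h against 1 h was 0.69 in Ler (95% interval -0.18 to 1.56) and 0.48 in Col (-0.39 to 1.35). Neither LUX nor ELF4 passed in the fit of all libraries, and with the libraries numbered 2 left out LUX rose in Ler at 2 h by 0.65 (adjusted p = 0.0437 by edgeR).

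Counted over the 10 genes, the replicate block gave 2 calls in Ler at 1 h (background 14.5%), 2 at 1 h (21.7%) and 3 at 2 h (22.1%) in Col, 1 in Col at 2 h against 1 h (5.65%) and 0 in Ler at 2 h against 1 h (7.62%). Leaving out the libraries numbered 2, with no block, gave 2 calls at 1 h (background 3.7%) and 3 at 2 h (1.53%) in Ler, 2 at 1 h (6.64%) and 2 at 2 h (4.18%) in Col, and 0 in both comparisons of 2 h with 1 h (1.15% in Ler and 0.432% in Col). That omission was chosen from the 10 genes themselves, so their counts and the background are not a like comparison. In the fit of all libraries without the block no clock gene passed between 2 h and 1 h, against 1.1% of all features in Ler and 2.23% in Col, and none had an unadjusted p under 0.05 or a DESeq2 call there. DESeq2 called 4.05% of all features in Ler and 4.3% in Col between 2 h and 1 h. The median 2 h log2 fold change of the 10 genes was 0.33 in Ler and 0.16 in Col, beside -0.03 and 0.01 over all features tested.

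Between the ecotypes, LHY and PRR7 were higher in Ler than in Col in all 9 pairs of libraries of equal number and time. LHY was 0.97 to 1.97 higher on the log2 scale and PRR7 0.63 to 1.57 higher. The share of all features with all 9 pairs on the same side is not given, so this count has no background here. PRR7 was at 70.3, 40.6 and 46.9 CPM in Ler libraries 1, 2 and 3, against 42.4, 13.7 and 30.3 CPM in Col at 0 h. At 1 h it was at 56.1, 43.0 and 53.1 CPM in Ler, against 34.8, 18.5 and 29.7 CPM in Col, and at 2 h at 70.0, 50.3 and 63.6 CPM in Ler, against 37.0, 20.1 and 38.2 CPM in Col. The PRR7 groups overlapped by 1 library pair at 0 h and did not overlap at 1 h or 2 h, again with no background over all features. LHY overlapped at every time, because the Col library numbered 2 was above both Ler libraries numbered 1 and 3.

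**Figure D4:**
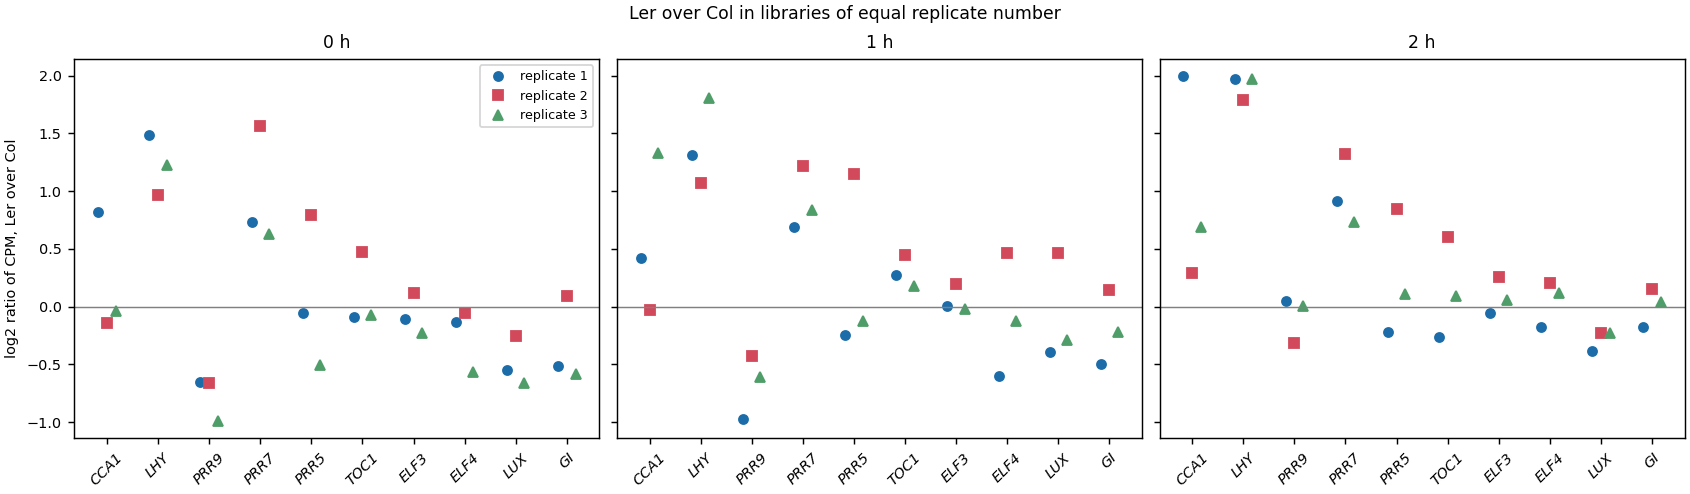
Points are the log2 ratio of CPM in Ler over Col between libraries of equal replicate number at 0, 1 and 2 h, for each clock gene. LHY (0.97 to 1.97) and PRR7 (0.63 to 1.57) lie above 0 in all 9 points, and PRR9 lies below 0 in 7 of 9.

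In the fit of all libraries none of the 10 genes passed between Ler and Col, against 17.7% of all features at 0 h, 14% at 1 h and 15.8% at 2 h. At an unadjusted p under 0.05 there were 2, 2 and 1 at 0, 1 and 2 h, for which no share over all features is given. DESeq2 called 1, 0 and 1, which were PRR9 at 0 h and PRR7 at 2 h, against 21.6%, 16.9% and 19.4% of all features. With the replicate block 3 of 10 passed at each time, against 30.1%, 21.8% and 25.7% of all features, so the share was close to the background. LHY was higher in Ler in that fit by 1.23 at 0 h (SE 0.17, adjusted p = 8.78e-05 by edgeR), 1.35 at 1 h (adjusted p = 4.08e-05) and 1.91 at 2 h (adjusted p = 1.76e-06). PRR7 was higher in Ler by 0.94 at 0 h (SE 0.18, adjusted p = 0.00154), 0.92 at 1 h (adjusted p = 0.00197) and 0.99 at 2 h (adjusted p = 0.0011). PRR9 was lower in Ler, at -0.75 at 0 h (SE 0.17, adjusted p = 0.00361) and -0.66 at 1 h (SE 0.15, adjusted p = 0.00585), and CCA1 was higher in Ler by 0.92 at 2 h (SE 0.31, adjusted p = 0.0431). Without the block the same genes had log2 differences of the same sign, with adjusted p of 0.346 to 0.622 for LHY, 0.0814 to 0.123 for PRR7, 0.0528 and 0.0972 for PRR9 at 0 and 1 h, and 0.726 for CCA1 at 2 h.

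Without the libraries numbered 2 and without a block, 5 of 10 passed at 0 h (background 16.5%), 3 at 1 h (9.57%) and 2 at 2 h (10.9%). Since the omission was chosen from these genes, the counts and the background are not a like comparison. LHY and PRR7 passed at all 3 times, at 1.35 to 1.96 and 0.69 to 0.82 on the log2 scale, and PRR9 at 0 h (-0.80) and 1 h (-0.81). LUX (-0.60, adjusted p = 0.0144 by edgeR) and GI (-0.54, adjusted p = 0.0138) were also lower in Ler at 0 h in that fit. LUX was lower in Ler in 8 of the 9 pairs of equal number and GI in 5 of 9. The green-tissue sum was 58.0 to 128 CPM in Ler against 31.1 to 67.4 CPM in Col at 0 h, 39.7 to 64.1 against 20.0 to 45.2 CPM at 1 h and 31.9 to 65.0 against 14.1 to 27.5 CPM at 2 h, and the groups overlapped at 0 h and 1 h. The summed level of the 9 root-apex markers was 405 to 459 CPM in Ler against 628 to 752 CPM in Col at 0 h, 346 to 436 against 489 to 701 CPM at 1 h and 383 to 510 against 471 to 524 CPM at 2 h, with an overlap only at 2 h. CASP1, at a mean of 408 CPM in Col at 0 h, was the largest part of the root-apex sum there. Single root-apex markers went both ways at 0 h. CASP1 was lower in Ler (log2 -1.29, adjusted p = 0.00912 by edgeR). PLT1 (0.78, adjusted p = 0.0369) and SMB (0.74, adjusted p = 0.0498) were higher in Ler, and the others did not pass. The part of these markers and sums in the Ler to Col differences was not tested. Whether reads of both ecotypes were aligned to the same sequence is not stated, and its part in the Ler to Col differences was not tested.

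The change over time was not shown to differ between the ecotypes for any of the 10 genes. The ecotype by time interaction passed for none at 1 h or at 2 h, against 0.00485% and 0% of all features, and neither an unadjusted p under 0.05 nor DESeq2 gave a call. DESeq2 called 0.107% and 0.646% of all features there. For PRR9 the 2 h change was 0.64 larger in Ler (log2, 95% interval -0.10 to 1.37, adjusted p = 0.336 by edgeR). For LHY it was 0.77 less negative in Ler, with an interval of -2.76 to 4.31.

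Levels were compared between genes as CPM per kilobase of annotated exon. ELF4 was the highest at 0 h, at 47.6 ± 9.19 in Ler and 57.4 ± 15.1 in Col (SD, n = 3), and PRR9 the lowest, at 2.40 ± 0.695 in Ler and 4.01 ± 0.765 in Col. In Ler the order between them was LHY (26.3 ± 26.3), TOC1 (23.3 ± 1.40), ELF3 (23.3 ± 1.86), GI (17.3 ± 1.76), PRR7 (16.3 ± 4.85), LUX (8.74 ± 0.914), CCA1 (7.33 ± 5.63) and PRR5 (6.76 ± 2.01). Of the neighbours in that order, ELF3 and GI, PRR7 and LUX, and PRR5 and PRR9 had means further apart than the larger of their SDs, and the others did not. In Col the order was ELF3 (24.4 ± 1.08), GI (22.6 ± 7.06), TOC1 (22.0 ± 4.86), LHY (12.6 ± 14.2), LUX (12.3 ± 1.83), PRR7 (8.91 ± 4.46), PRR5 (7.25 ± 4.09) and CCA1 (7.05 ± 6.95). There only ELF4 and ELF3 were neighbours with means further apart than the larger of their SDs. Without the libraries numbered 2 the mean of LHY at 0 h was 11.2 in Ler, between PRR7 (18.1) and LUX (8.74), and 4.40 in Col, between PRR5 (9.57) and PRR9 (3.61). CCA1 was then at 4.15 in Ler, where PRR9 was still the lowest (2.08), and at 3.04 in Col, where it lay below PRR9. ELF4 was the highest in both ecotypes there too (52.0 in Ler and 66.0 in Col). The exon length of LUX covers nearly its whole span, since an annotated isoform keeps the introns, so its level per kilobase may be understated.

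The features whose pattern over the 18 libraries was most like each clock gene were sought among 18751 features, by Pearson's r of log2 CPM after subtracting each ecotype's mean. The libraries share their replicate numbers and times, so r is a description here. CCA1 and LHY were most like each other (0.967), and LNK2, a transcriptional partner of the RVE factors, was second for both (0.937 for CCA1 and 0.936 for LHY). RVE8, an activator of evening genes related to CCA1, was next for CCA1 (0.922). PRR5 was most like FKF1 (0.968), which encodes an F-box photoreceptor of the ZTL family. LUX had ELF4 (0.859) after AT1G56300 (0.938) and AT5G39410 (0.875). PRR9 was most like GCL1 (0.963) and MYB12 (0.950), and GI most like ZIP5 (0.956) and DREB2C (0.955), and DREB2C was also first for TOC1 (0.907). PRR7 was most like AT5G05200 (0.937), ELF4 most like AT3G02242 (0.951), and ELF3 had no feature above 0.817.

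A list of 26 further genes tied to the clock was counted in the same way, 25 of which passed the filter. In the fit of all libraries 3 passed at 1 h and 0 at 2 h in Ler, 3 at 1 h and 1 at 2 h in Col, and between 2 h and 1 h 1 passed in Ler and 2 in Col. The shares of all features called in the same comparisons were 6.82% and 2.8% in Ler, 11.1% and 6.39% in Col, and 1.1% in Ler and 2.23% in Col between 2 h and 1 h. TIC, a nuclear regulator needed for clock amplitude, rose at 1 h by 0.67 in Ler (log2, adjusted p = 0.014 by edgeR) and 0.86 in Col (adjusted p = 0.00201) and fell again between 1 h and 2 h in both. Its libraries were at 352 to 425 CPM in Ler and 347 to 599 CPM in Col at 1 h, and at 225 to 254 CPM in every library at 0 h or 2 h. RVE6 rose at 1 h by 0.92 in Ler (adjusted p = 0.0136) and 0.86 in Col (adjusted p = 0.0139), and CHE, a TCP factor that represses CCA1, fell at 1 h by 1.09 in Ler (adjusted p = 0.0199) and 1.31 in Col (adjusted p = 0.00463). PRMT5, a methyltransferase that acts in clock gene splicing, rose in Col at 2 h by 0.50 (adjusted p = 0.0391). CKB3, LNK2, LNK1 and XCT, the next most abundant of the list, passed in none of these 6 comparisons.

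Across replicate numbers 13 of the 25 passed, against the 35.3% of all features. FKF1 was at 0.795, 1.13 and 1.48 CPM in the Ler libraries numbered 2 at 0, 1 and 2 h, against 2.45 to 5.96 CPM in the Ler libraries numbered 1 and 3. In the fit of all libraries its log2 difference between replicates 2 and 1 was -2.70. The replicate term as a whole had an adjusted p of 2.86e-05 for it (edgeR). LNK3 (1.41), RVE8 (1.04), LNK2 (1.03), RVE1 (1.00), LNK4 (0.72), RVE2 (0.60), BOA (0.56), LNK1 (0.56), RVE4 (0.28) and LWD1 (0.28) were higher in replicate 2 than in replicate 1. PRR3 (-0.63) and XCT (-0.21) were lower. For LWD1 and XCT, replicate 3 lay further from replicate 1 than replicate 2 did, at 0.30 and -0.45.

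**Figure D5:**
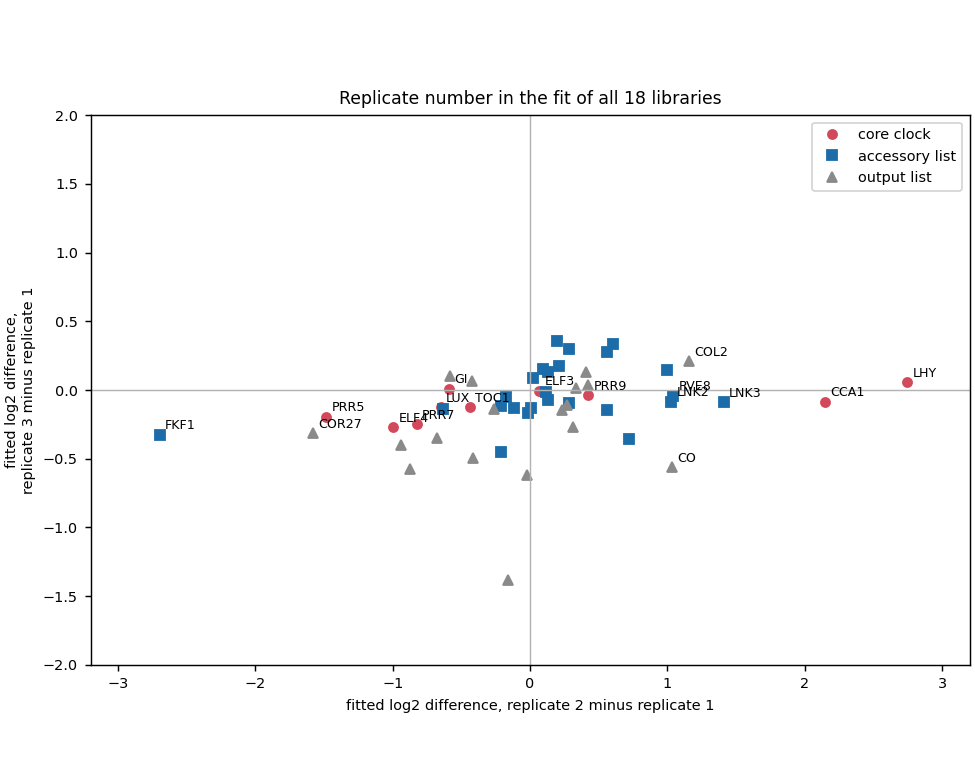
Each point is a clock, accessory or output gene, with the fitted log2 difference between replicates 2 and 1 on the x axis and that between replicates 3 and 1 on the y axis, from the fit of all 18 libraries with a replicate term. LHY (2.75) and CCA1 (2.15) lie far right and FKF1 (-2.70), COR27 (-1.58) and PRR5 (-1.49) far left, while the 10 clock genes lie between -0.27 and 0.05 on the y axis.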

How the data were processed

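Raw read counts per gene, 1 table per library, were deposited by the authors; TopHat2, Bowtie2 and the TAIR10 build are named in the submitters' processing notes, with no versions or roles, and the counting tool is not given in the sources used here. The 10 members and all gene lists were chosen with earlier results of these data known. Counts of the 32852 features listed in all 18 libraries were filtered with filterByExpr (minimum count 10, minimum total 15; 20599 kept) and fitted with edgeR 4.0.16 (TMM, quasi-likelihood test, 1 mean per group, 12 residual degrees of freedom) in R 4.3.3. P-values were adjusted by Benjamini-Hochberg over all features within each of 11 contrasts, with a threshold of 0.05; a standard error is the absolute log2 fold change over the square root of F, and 95% intervals use the moderated degrees of freedom. The procedure was tested on simulated data.

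Equal replicate numbers were taken to pair libraries where every pair of deviations from the group means correlated above 0.1. This held in 8 of the 11 contrasts (smallest r 0.229 to 0.428); it did not in Ler at 2 h against 0 h (0.032) or in the interactions (0.0486 and 0.032). The pairing comes from the numbers in the labels and this check, and the labels state no shared batch. The 6 libraries numbered 2 were left out in an alternative, and the replicate term was tested, after their clock genes had been seen. Other alternatives were RLE size factors, DESeq2 1.42.0, no filter, only the libraries contrasted, a block within ecotype, and each library left out. For the comparisons over time, genes of the 2 further lists were named as those passing in most of the 6 within-ecotype contrasts, ties by mean CPM, up to 8 per list. For the replicate term, the genes of these lists that passed it were named. Likeness used log2 CPM with a prior count of 2 and features of at least 1 CPM. Gene models and upstream sequences come from RefSeq's TAIR10.1; 10 of 10 members matched by locus.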

Additional observations from a re-analysis of the deposited data

How the results depend on the processing

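The counts of clock genes past the threshold were the same with no filter on low counts in all 11 contrasts, and the interactions gave 0 under every alternative run. In Ler at 1 h the count was 1 in the fit of all libraries, 2 with the replicate block, 3 with the block within ecotype, 2 with only the libraries contrasted, 2 with replicates 1 and 3 only and 2 with those and the block. In that order, 6.82%, 14.5%, 15.7%, 7.34%, 3.7% and 9.72% of all features were called. In Ler at 2 h, where the equal numbers do not pair the libraries, the count of 1 became 4 with the replicate block and with the block within ecotype. It became 3 with replicates 1 and 3 only and 5 with those and the block. The shares of all features called under these 4 settings were 8.86%, 10.1%, 1.53% and 7.48%, against 2.8% in the fit of all libraries. In Col at 1 h the count of 1 became 2 with the replicate block, 3 with the block within ecotype, 2 with replicates 1 and 3 only and 3 with those and the block. Of all features, 21.7%, 24%, 6.64% and 21.9% were called under these 4 settings, against 11.1% in the fit of all libraries. In Col at 2 h the count of 1 became 3, 5, 2 and 7 under the same 4 settings. The shares of all features were 22.1%, 25.9%, 4.18% and 24.5% there, against 6.39% in the fit of all libraries. Between 2 h and 1 h the count of 0 became 1 in Col with the replicate block (5.65% of all features) and with the block within ecotype (5.91%). In Ler it became 2 with replicates 1 and 3 only and the block (7.46%). Between Ler and Col the count of 0 became, at 0 h, 1 with RLE size factors, 1 with DESeq2, 3 with the replicate block, 4 with the block within ecotype, and 5 with replicates 1 and 3 only, with or without the block. Of all features, 17.8%, 21.6%, 30.1%, 26.5%, 33.1% and 16.5% were called in that order, against 17.7% in the fit of all libraries. At 1 h the count became 3 with the replicate block, 4 with the block within ecotype, 3 with replicates 1 and 3 only and 5 with those and the block. The background was 21.8%, 16.8%, 9.57% and 18.2% in that order, against 14% in the fit of all libraries. At 2 h the count became 1 with DESeq2, 1 with only the libraries contrasted, 3 with the replicate block or the block within ecotype, 2 with replicates 1 and 3 only and 4 with those and the block. The background was 19.4%, 12.7%, 25.7%, 14.6%, 10.9% and 23.7% in that order, against 15.8% in the fit of all libraries. The replicate term called 9 clock genes, and 0 with replicates 1 and 3 only. Over all features, the share called over time against 0 h was 10.1% to 25.9% with the block within ecotype and 7.48% to 24.5% with replicates 1 and 3 only and the block, against 2.8% to 11.1% in the fit of all libraries, and between Ler and Col it was 14.6% to 26.5% and 18.2% to 33.1%, against 14% to 17.7%. The cause of these differences was not tested.

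Leaving out 1 library at a time gave 0 to 1 calls in Col at 2 h against 0 h and between Ler and Col at each time, and 9 to 9 in the replicate term. Over all 110 log2 fold changes (10 genes in 11 contrasts), the settings that leave out no single library turned 1 to 14 signs, all of values within 0.102 of 0 in the fit of all libraries. Among the 21 that passed with or without the block, these settings turned 0, but leaving out a library numbered 2 did for the log2 fold changes of CCA1 in Col at 2 h (0.26, range -2.34 to 0.26), LHY in Col at 2 h against 0 h (0.21, range -2.78 to 0.21) and against 1 h (0.84, range -2.57 to 0.84), and LHY in Ler at 2 h (0.69, range -1.86 to 0.69). The same held between Ler and Col for LHY at 0 h (-0.17, range to 2.58) and 1 h (-0.44, range to 3.16), and for CCA1 at 2 h (-0.085, range to 1.97). In the interactions at 2 h, 2 clock genes had an unadjusted p under 0.05 with the block and none an adjusted one. Every library had at least 72 counts for each clock gene.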

Other observations

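A list of 19 genes of clock output, of which 18 passed the filter, held 2 that rose in Ler at 1 h, 3 in Ler at 2 h, 1 in Col at 1 h and 1 in Col at 2 h, and none that fell, against 6.82%, 2.8%, 11.1% and 6.39% of all features called in either direction. BBX25, a B-box protein of light signalling, rose at both times in both ecotypes, by 2.51 and 3.39 in Ler and by 2.31 and 2.53 in Col at 1 and 2 h (log2, adjusted p 0.0032 to 0.0138 by edgeR). It was at 0.898 to 1.79 CPM in Ler at 0 h, 6.21 to 8.43 CPM at 1 h and 7.46 to 18.4 CPM at 2 h, and at 0.912 to 2.69, 6.53 to 13.4 and 4.68 to 19.8 CPM in Col. CDF1, a Dof factor that represses CO and is cleared through FKF1 and GI, rose in Ler by 1.26 at 1 h (adjusted p = 0.0221) and 1.43 at 2 h (adjusted p = 0.0216), at a mean of 2.65 CPM over all libraries. BBX24 rose in Ler at 2 h by 0.89 (adjusted p = 0.0193). The next most abundant genes of the list, GRP7, CAT2, GRP8, CAT3 and CDF2, passed in none of the 6 comparisons over time.

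Across replicate numbers 11 of the 18 output genes passed, against 35.3% of all features. GRP8, an RNA-binding protein with evening-phased transcript, was at 267, 223 and 258 CPM in the Ler libraries numbered 2 at 0, 1 and 2 h, against 386 to 555 CPM in the Ler libraries numbered 1 and 3. In Col it was at 402, 292 and 406 CPM in the libraries numbered 2, against 478 to 678 CPM in the others. COR27, a cold-induced evening gene, had a fitted log2 difference of -1.58 between replicates 2 and 1, at a mean of 1.49 CPM over all libraries. The replicate term as a whole had an adjusted p of 0.00301 for it (edgeR). The output genes that passed went both ways. COL2 (1.16), CO (1.04), BBX24 (0.40), BBX19 (0.33) and CDF2 (0.31) were higher in replicate 2 than in replicate 1. CAT3 (-0.87), COR28 (-0.68), COL9 (-0.58) and GRP7 (-0.42) were lower. COL2 and CO averaged only 0.824 and 0.176 CPM over all libraries.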
